A study of Sus scrofa with 80 samples.

Results

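The comparison described here set blood transcriptomes of pigs at the upper end of a combined measure of CD8+ cells and body weight against those of pigs at its lower end. It comprised 10 of the 80 arrays of the series, chosen by their labels alone: 5 from the self-product high group and 5 from the self-product low group of the trait pair CD8+--W35, where W35 is the body weight on day 35. The series holds 8 such pairs of immune and growth traits. For each pair the submitters computed a self-product of both traits for every pig, ranked the pigs by it, and took 5 animals from each tail. The formula of the self-product and the trait values of the single pigs were not used here.

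All animals were weaned Sus scrofa of 35 days. No treatment, breed, sex or genotype was given in the labels for either group. Blood was drawn from the anterior vena cava, CD8+ was measured by flow cytometry, and Trizol-extracted total RNA of unfractionated blood was hybridised to Affymetrix porcine arrays. Each array stood for 1 pig, so the 5 arrays of a group were biological replicates, named below high 1 to high 5 and low 1 to low 5. A high self-product need not mean a high CD8+ value, and both traits enter it, so CD8+ and weight cannot be told apart in this design.

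CD8 is a coreceptor that helps the T cell receptor recognise peptides on MHC class I, and it marks cytotoxic T cells, which kill infected cells through granule proteins and secrete interferon gamma and chemokines. In pigs, CD8 alpha is also carried by natural killer cells, by many gamma delta T cells and by a subset of activated or memory CD4+ cells. Naive T cells carry homing and transcription factor genes such as CCR7 and LEF1, which are reduced after activation, while dividing lymphocytes express genes of DNA replication and mitosis. Growth is driven largely by growth hormone from the pituitary and by insulin-like growth factor 1, much of it made in liver.

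The deposited log2 values of the 10 arrays ran from 2.15 to 14.80, and their number, not a read depth, limited the precision. Correlations between arrays over all probe sets were 0.937 to 0.987, and the lowest median correlations with the other arrays belonged to high 4 (0.958) and high 5 (0.963). The arrays fell into 2 classes by the difference between the spike-in controls bioB and bioC: high 1, high 2, low 2, low 3 and low 5 lay in the lower class, and high 3, high 4, high 5, low 1 and low 4 in the higher one. EIF1AY, a Y-linked gene, had a log2 level of 6.98 to 7.22 on high 3, high 4, low 3 and low 5 and of 2.63 to 3.03 on the others. The difference between the 3′ and 5′ actin control probe sets, a measure of RNA integrity, averaged 3.08 ± 0.45 in the high group and 2.71 ± 0.98 in the low group (SD, n = 5 each, log2; exact two-sided permutation p = 0.460, the smallest possible being 0.00794). In the lower spike-in class the arrays with high EIF1AY were low 3 and low 5, in the higher class high 3 and high 4. In the higher class the actin difference was 2.57 to 3.49 on the high arrays, and 1.91 and 1.53 on low 1 and low 4. Differences within a spike-in class, given below, therefore cannot be told apart from those of EIF1AY and, in the higher class, of the actin measure. Of the 10 pigs, 8 recurred on 21 arrays of other trait pairs (matched by a correlation above 0.99), 4 of them under the opposite label, so the other pairs are no independent replicates of this one.

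No probe set differed between the groups beyond the spread of the arrays once p-values were adjusted. Of 23999 probe sets tested with limma, 0 passed a Benjamini-Hochberg adjusted p of 0.05 (0%), and the smallest adjusted p was 0.9998. At an unadjusted p under 0.05, 822 probe sets (3.43%) were called, against 1200 in a table with no difference. Of these, 425 (1.77%) were higher and 397 (1.65%) lower in the high group. With 1 probe set for each of 6765 annotated genes, 0 passed adjustment (0%) and 296 (4.38%) had an unadjusted p under 0.05, 157 of them higher (2.32%) and 139 lower (2.05%). The median difference over these genes was 0.01, the median standard error of a difference 0.20, and 66 genes differed by more than 1 on the log2 scale, 44 higher and 22 lower. Of the 6765 genes, 3488 (51.6%) were higher in the high group. Members of a list were measured on the same 10 pigs, so counts of their directions below are not independent observations. Differences are high minus low on the log2 scale throughout. Values below are therefore sizes and directions in these 10 pigs, and no single gene was shown to differ between the populations they came from.

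**Figure D1:**
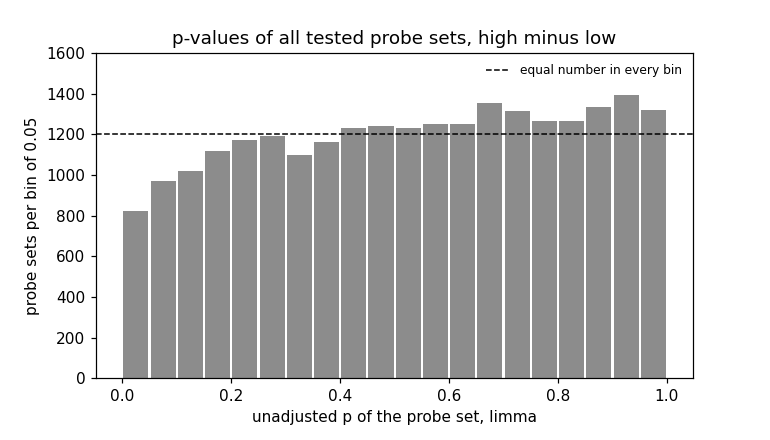
Number of tested probe sets (y axis) in bins of unadjusted limma p (x axis, 0 to 1) for the high group against the low group, with a dashed line at an equal number per bin. The first bin holds 822 probe sets, below the 1200 of the dashed line.

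Some genes separated the pigs without overlap, though fewer than expected with no difference. For 98 probe sets (0.408%) the ranges of both groups lay apart, 69 higher (0.288%) and 29 lower (0.121%). Of the 98, 43 carried a single gene symbol, 55 none or several, and 51 had a mean at or above that of the median probe set. Among the 6765 genes the groups did not overlap for 34 (0.503%), 24 higher (0.355%) and 10 lower (0.148%). With no difference, 5 against 5 arrays lie apart in a fraction of 0.00794 of assignments, counting either direction. Both 0.408% and 0.503% are smaller shares than that. The 10 higher and 9 lower genes of at least median level with the smallest p are described next. These genes were picked for their separation, so its completeness is a description of them and not a result.

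RRM2, the small subunit of ribonucleotide reductase that supplies deoxynucleotides for DNA synthesis, had the smallest p of all tested probe sets. Its log2 levels were 9.52, 9.65, 9.73, 10.18 and 9.08 on high 1 to high 5, against 7.94, 8.36, 8.74, 8.62 and 7.41 on low 1 to low 5. Every high array lay above every low array, with high 4 the highest and low 5 the lowest. The difference was 1.42 (SE 0.27, n = 5 each), a 2.67-fold higher mean, and the adjusted limma p was 0.9998.

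CCL5, a chemokine kept in the granules of cytotoxic lymphocytes and of platelets, also separated the groups. Its log2 levels were 12.34, 11.65, 11.62, 11.32 and 12.74 on high 1 to high 5, against 10.73, 10.55, 10.47, 11.09 and 10.73 on low 1 to low 5. High 5 and high 1 were the highest, and the nearest arrays of the groups were high 4 and low 4. The difference was 1.22 (SE 0.26), a 2.33-fold higher mean. S100A1, a calcium-binding protein best known from muscle, was at 6.90 to 7.69 in the high group and 5.38 to 6.88 in the low group, a difference of 1.28 (SE 0.26). The gap between its groups was narrow, with high 4 just above low 3.

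Of the other separated genes that were higher, 4 belong to cell division. The mitotic kinase MELK differed by 0.66 (SE 0.15), the centromere protein APITD1 by 0.73 (SE 0.19), the kinetochore component NUF2 by 0.62 (SE 0.16) and BIRC5, a subunit of the chromosomal passenger complex, by 0.56 (SE 0.14). The remaining 3 were CLK1, a kinase of splicing factors (1.02, SE 0.26), the ubiquitin ligase RCHY1 (0.48, SE 0.12) and the proteasome assembly chaperone PSMG3 (0.38, SE 0.10). CLK1 was at 10.56, 10.90, 11.12, 11.96 and 10.92 on high 1 to high 5, against 10.32, 10.53, 9.62, 9.82 and 10.07 on low 1 to low 5, with high 4 standing highest.

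The lower genes that separated the groups included 2 of lymphocyte interest. ID3, an inhibitor of helix-loop-helix transcription factors that is active in naive and memory T cells, was at 8.09, 8.47, 8.30, 8.22 and 8.31 on high 1 to high 5, against 8.71, 8.98, 9.10, 8.86 and 8.73 on low 1 to low 5. Its difference was -0.60 (SE 0.12), and both groups were tight, with high 2 nearest to the low arrays. DAPL1, a member of the naive T cell list, was at 8.69, 8.66, 7.68, 7.74 and 8.51 on high 1 to high 5, against 8.90, 10.09, 9.12, 9.02 and 10.37 on low 1 to low 5. It differed by -1.24 (SE 0.33), and low 2 and low 5 stood well above the other low arrays.

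The other 7 lower genes came from several cellular roles. MAT2A, the enzyme that makes S-adenosylmethionine, differed by -0.73 (SE 0.17) and its nearest arrays, high 1 and low 1, were at 8.36 and 8.40. PADI2, a protein-arginine deiminase, differed by -0.84 (SE 0.20), and SENP5, which removes SUMO from proteins, by -0.84 (SE 0.21). The lysosomal protease CTSB differed by -0.58 (SE 0.19), the lysosomal cholesterol carrier NPC2 by -0.52 (SE 0.15), SCCPDH by -0.32 (SE 0.15) and ARFGEF2, an exchange factor for ARF GTPases in vesicle traffic, by -0.30 (SE 0.10). Several probe sets were present for NPC2 and ARFGEF2, and they disagreed: the differences of the 3 for NPC2 ran from -0.52 to 0.26 and those of the 2 for ARFGEF2 from -0.30 to 0.01.

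**Figure D2:**
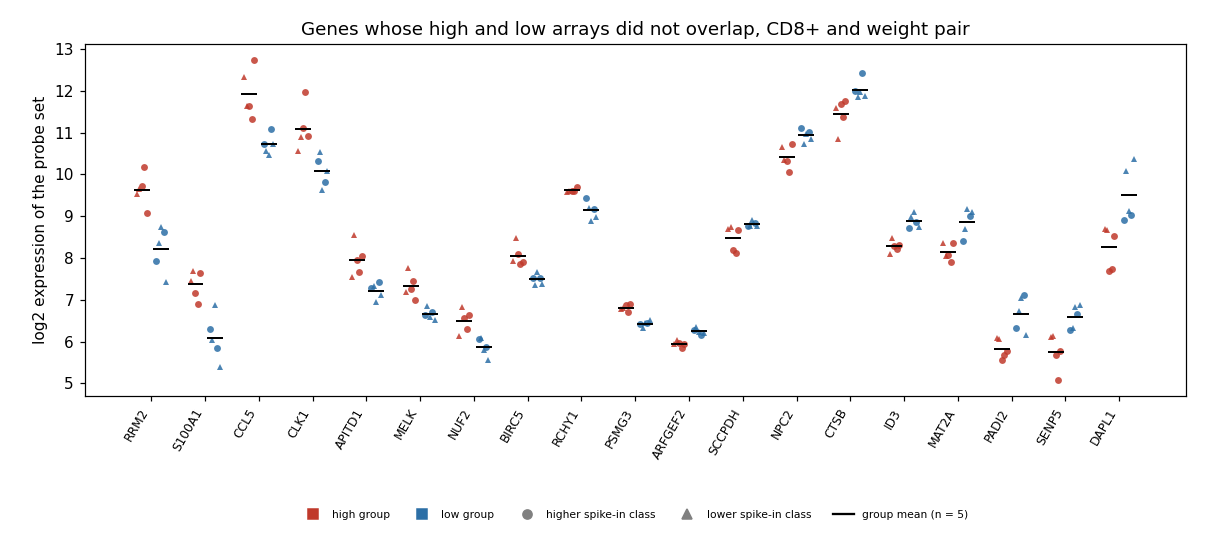
Log2 level of the 10 higher and 9 lower genes whose groups did not overlap, with the 5 high arrays in red left of the 5 low arrays in blue, black bars for group means, and circles or triangles for the higher or lower spike-in class. RRM2, S100A1 and CCL5 show the widest steps upward, DAPL1 the widest downward, and both spike-in classes occur in each group.

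The genes of the CD8 coreceptor were examined next. Their RNA levels in unfractionated blood are not the trait itself, which was CD8+ by flow cytometry. CD8A, the alpha chain, had log2 levels of 10.39, 10.24, 9.57, 8.68 and 8.83 on high 1 to high 5, against 8.86, 8.79, 8.76, 9.07 and 7.86 on low 1 to low 5. High 1, high 2 and high 3 were above every low array, whereas high 4 and high 5 lay among them. The difference was 0.88 (SE 0.36) without passing adjustment. It was 1.85 within the lower spike-in class and 0.06 within the higher one. EIF1AY, and in the higher class the actin measure, also differed between the groups within these classes. The part of each in the CD8A difference was not tested beyond these values.

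CD8B, the beta chain found mainly on conventional cytotoxic T cells, had log2 levels of 7.64, 8.03, 7.67, 7.26 and 6.49 on high 1 to high 5, against 7.41, 6.81, 6.71, 7.70 and 6.05 on low 1 to low 5. High 2 alone exceeded all low arrays. The difference of 0.49 (SE 0.34) was 1.32 within the lower and -0.41 within the higher spike-in class. Of the 7 measured genes of the CD8 T cell receptor list, 3 were higher and 4 lower in the high group, with a median difference of -0.08 and a mean difference of 0.07 (SE 0.22), so these differed in sign. Leaving out 1 array moved the median between -0.20 without high 2 and 0.13 without high 4. CD8A was the 1 member of the 7 under an unadjusted p of 0.05, against 4.38% of all genes, and CD247, the zeta chain of the T cell receptor complex, had the lowest difference at -0.57 (SE 0.39, its 4 probe sets running from -0.57 to -0.08). In whole blood, fewer cells of a type and less RNA per cell cannot be told apart, here and in every list below.

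Some genes of cytotoxic lymphocytes were higher, and most measured genes of naive T cells lower. On the cytotoxic granule and natural killer cell list, 10 of 14 measured members were higher and 4 lower, the median difference being 0.13 against 0.01 for all genes. An unadjusted p under 0.05 was reached by 5 members, 4 of them higher (2.32% of all genes) and 1 lower (2.05%). The list mean was 10.86, 10.76, 10.94, 10.58 and 10.81 on high 1 to high 5, against 10.49, 10.54, 10.25, 10.54 and 10.52 on low 1 to low 5, so that every high array was above every low one. Without high 5, 12 of 14 members were higher and the median was 0.26, and without high 4, 9 of 14 with a median of 0.04. The median was also 0.04 without high 3, 0.19 without high 1 and 0.08 without low 5, and with the mean of the erythroid genes as a covariate it was 0.01 with 8 of 14 higher.

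KLRK1, which encodes the activating receptor NKG2D of natural killer and CD8 T cells, was at 10.24, 9.54, 9.20, 8.85 and 10.26 on high 1 to high 5, against 8.65, 8.5, 7.67, 8.33 and 9.22 on low 1 to low 5. High 3 and high 4 fell below low 5, and the difference was 1.14 (SE 0.33). GNLY, encoding the granule protein granulysin, was at 12.48, 12.96, 12.38, 11.17 and 12.17 on high 1 to high 5, against 11.08, 11.63, 11.62, 11.76 and 11.18 on low 1 to low 5. High 4 was the exception among the high arrays, and the difference was 0.78 (SE 0.29). SH2D1A, an adaptor of SLAM-family receptors, differed by 0.99 (SE 0.37) and the granzyme gene GZMH by 0.76 (SE 0.42), both with overlapping groups. CTSC, the protease that activates granzymes, went the other way with a difference of -0.66 (SE 0.24).

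On the naive and resting T cell list, 9 of 12 measured members were lower and 3 higher, with a median difference of -0.50. The 4 members under an unadjusted p of 0.05 were all lower (2.05% of all genes). LEF1, which helps keep T cells in the naive state, was at 8.39, 8.52, 7.61, 8.17 and 9.18 on high 1 to high 5, against 8.62, 10.25, 9.47, 9.69 and 10.37 on low 1 to low 5. High 5 was above low 1, and the other high arrays were below all low ones. Its difference was -1.30 (SE 0.36).

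CCR7, the chemokine receptor for entry into lymph nodes, was at 6.26 to 6.48 in the high group and 6.35 to 7.41 in the low group, a difference of -0.55 (SE 0.21). SATB1, a chromatin organiser of T cells, differed by -0.95 (SE 0.40) on its brightest probe set, but its 4 probe sets ran from -0.95 to 0.11. IL7R, the interleukin 7 receptor, was at 9.03, 8.56, 8.15, 8.24 and 9.56 on high 1 to high 5, against 7.52, 10.02, 10.23, 9.52 and 10.59 on low 1 to low 5. Low 1 was the lowest of all 10 arrays, and the difference was -0.87 (SE 0.52). Without high 5, 10 of 12 members of the list were lower, and without high 4, 8 of 12. The list mean was 6.75 to 7.65 in the high group and 7.16 to 8.27 in the low group.

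IFNG, the gene of interferon gamma secreted by T and natural killer cells, had the largest difference of the genes named here. Its log2 levels were 6.88, 8.12, 7.96, 7.83 and 6.10 on high 1 to high 5, against 6.79, 5.0, 4.5, 4.60 and 6.54 on low 1 to low 5. High 5 was below low 1 and low 5, and the other 4 high arrays were above all low ones. The difference was 1.89 (SE 0.54), a 3.71-fold higher mean. On the T cell activation and memory list, to which IFNG and ID3 belong, 3 of 8 measured members were higher and 5 lower. At an unadjusted p under 0.05 were 1 higher and 2 lower members (2.32% and 2.05% of all genes). The median difference of that list was -0.11, with -0.07 without high 5 and -0.05 without low 5, its mean difference was 0.05 (SE 0.11), again of opposite sign, and the inhibitory receptor gene CTLA4 differed by -0.43 (SE 0.14) at log2 levels of 3.85 to 4.78 over the 10 arrays. Of the 9 genes on the gamma delta T cell list only 2 were measured, and TRDC and TRGC1 were not among them. The 2 were GATA3 (-0.85, SE 0.56) and CCR9 (-0.29, SE 0.35), both lower with overlapping groups, and they alone do not read out that cell type. The 4 probe sets of GATA3 ran from -1.13 to 0.19. The median of these 2 genes was -0.57, with -0.89 without high 5 and -0.35 without low 5.

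**Figure D3:**
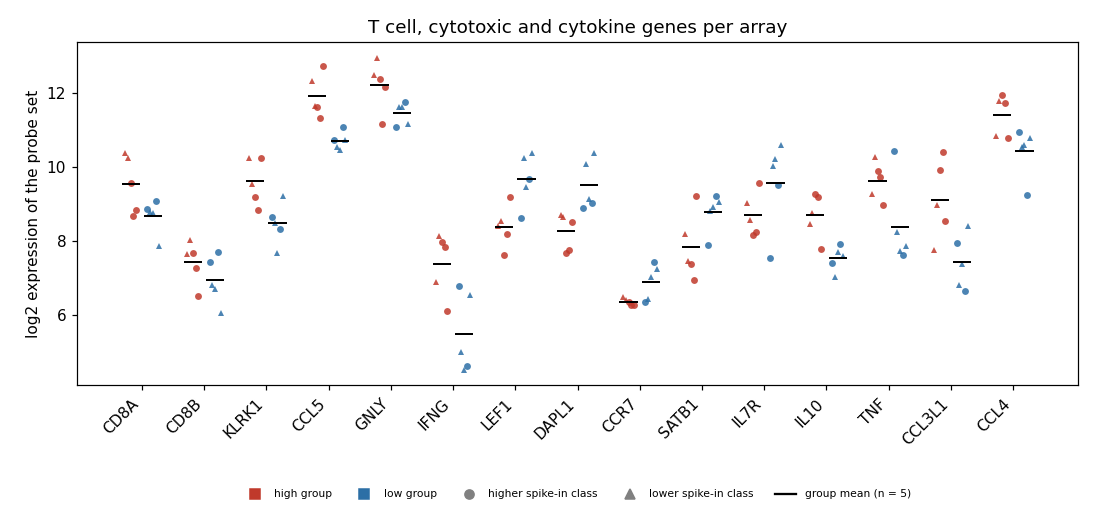
Log2 level of 15 T cell, cytotoxic and cytokine genes, with the 5 high arrays in red left of the 5 low arrays in blue, black bars for group means, and circles or triangles for the higher or lower spike-in class. CCL5 and DAPL1 show no overlap, and the 3 highest CD8A values are high 1, high 2 and high 3.

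Genes of cell division were mostly higher. Of 28 measured mitosis genes, 25 were higher in the high group and 3 lower, with a median difference of 0.32. All 9 members under an unadjusted p of 0.05 were higher (2.32% of all genes), and the groups did not overlap for 4 of them (0.355%), the genes MELK, BIRC5, APITD1 and NUF2 described above. The list mean was 7.37, 7.73, 7.49, 7.48 and 7.39 on high 1 to high 5, against 7.15, 7.14, 7.29, 7.30 and 6.99 on low 1 to low 5. High 2 was the highest and low 5 the lowest, and every high array was above every low one. The mitotic cyclins CCNB2 (0.68, SE 0.18) and CCNB1 (0.63, SE 0.23) and the spindle checkpoint gene MAD2L1 (0.40, SE 0.15) were higher with overlapping groups, as was TOP2A, which untangles chromosomes (0.43, SE 0.27). Without high 5, 26 of the 28 were higher, without high 4, 25, within the lower spike-in class all 28, and within the higher one 20.

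DNA replication genes leaned the same way. Of 14 measured members, 13 were higher, 4 of them at an unadjusted p under 0.05 (2.32% of all genes), and the median difference was 0.20. Beside RRM2 these were MCM2 (0.41, SE 0.15) and MCM3 (0.40, SE 0.17), subunits of the replicative helicase, and PCNA (0.46, SE 0.20), the sliding clamp of DNA polymerases. The 3 probe sets of MCM2 disagreed, running from -0.02 to 0.41. Averaged over the list, levels were 7.87 to 8.20 in the high group and 7.51 to 7.88 in the low group, and 4 high arrays were above all low arrays. Among separated genes outside the naming rule, and named after their values were seen, were the histone methyltransferase EZH2 (0.63, SE 0.18), the recombination cofactor RAD51AP1 (0.62, SE 0.16) and the PCNA-binding protein PCLAF (0.41, SE 0.15), all higher, and AOAH, which inactivates bacterial lipopolysaccharide (0.67, SE 0.20). The other probe sets of RAD51AP1, PCLAF and AOAH gave smaller differences, the smallest being 0.04, 0.19 and 0.19.

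Cytokine genes of the inflammatory list were mostly higher. Of 26 measured members, 19 were higher and 7 lower, with a median difference of 0.24. The 4 under an unadjusted p of 0.05 were all higher (2.32% of all genes). That median was 0.47 without high 5, 0.15 without high 4 and 0.14 with the erythroid covariate. IL10, an anti-inflammatory cytokine, was at 8.46, 8.76, 9.28, 9.20 and 7.79 on high 1 to high 5, against 7.40, 7.03, 7.69, 7.92 and 7.59 on low 1 to low 5. High 5 lay within the low range and low 4 was the highest of the low arrays. The difference was 1.17 (SE 0.28), a 2.25-fold higher mean.

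The chemokine gene CCL3L1 was at 7.74, 8.98, 9.92, 10.39 and 8.53 on high 1 to high 5, against 7.94, 6.80, 7.38, 6.64 and 8.40 on low 1 to low 5, a difference of 1.68 (SE 0.50). High 1 lay inside the low range. TNF, the gene of tumour necrosis factor, was at 9.27, 10.27, 9.89, 9.74 and 8.96 on high 1 to high 5, against 10.43, 8.25, 7.73, 7.62 and 7.85 on low 1 to low 5, a difference of 1.25 (SE 0.50). Low 1 had the highest TNF level of all 10 arrays, and the other 4 low arrays were below every high one. CCL4, a chemokine of activated lymphocytes and monocytes, differed by 0.995 (SE 0.35). Not every cytokine leaned upward: IL1B (-0.74, SE 0.62) and the monocyte chemoattractant CCL2 (-0.78, SE 0.44) were lower. Averaged over the list, levels were 7.37 to 8.56 in the high group and 7.43 to 7.79 in the low group, with high 1 and high 5 below every low array and high 2, high 3 and high 4 above.

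Interferon-stimulated antiviral genes were higher in 19 of 20 measured cases, with a median difference of 0.40, but the spread between pigs was wide. An unadjusted p under 0.05 was reached by 1 of the 20, PLSCR1 (0.91, SE 0.40), a share near the 4.38% of all genes. The list mean was 9.75, 10.09, 10.59, 9.82 and 8.68 on high 1 to high 5, against 9.63, 9.29, 8.59, 9.70 and 9.54 on low 1 to low 5. High 5 and low 3 were the lowest of their groups. OAS1, a sensor of double-stranded RNA, was at 8.99 to 13.03 in the high group and 5.0 to 10.89 in the low group, a difference of 1.61 (SE 1.11). Its low 3 array stood far below the others, and without it the difference was 0.51. Without high 5, 20 of 20 list members were higher with a median of 0.62, 8 at an unadjusted p under 0.05, but calls were then more frequent among all genes too (9.52%, 4.18% higher and 5.34% lower). Without high 4, 19 of 20 were higher, and without low 3 the median was 0.24. Within the higher spike-in class 11 of 20 were higher.

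Of 19 measured genes of the interferon gamma response, 13 were higher and 6 lower, with a median difference of 0.05, which ran from 0.01 without low 2 to 0.20 without high 4. The members under an unadjusted p of 0.05 were 2 of 19, both higher (2.32% of all genes). These guanylate-binding protein genes GBP2 and GBP1, interferon-induced GTPases of host defence, differed by 1.21 (SE 0.39) and 1.02 (SE 0.34). Within the lower spike-in class the differences of GBP2 and GBP1 were 1.89 and 1.80, and within the higher one 0.43 and 0.07. In both, low 4 lay within the high range and the other 4 low arrays below every high one. MHC class I genes were higher in 4 of 10 cases with a median difference of -0.02, and MHC class II genes in 2 of 11 with a median of -0.34 and no member under an unadjusted p of 0.05. Without high 4, which had the lowest class II list mean (9.31 against 10.16 to 10.64 on the other high arrays), the class II median was -0.06, and with the erythroid covariate it was -0.01.

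Immediate early genes, which are induced within minutes of a stimulus and also by handling of cells, were higher in 25 of 29 measured cases, with a median difference of 0.34 and 4 members under an unadjusted p of 0.05 (4.38% of all genes), 3 higher and 1 lower. The median was 0.57 without high 5, and 0.13 with 19 of 29 higher under the erythroid covariate. On high 1 to high 5 the mean of these genes was 9.43, 9.70, 9.96, 10.44 and 9.43, against 9.46, 9.69, 9.16, 9.28 and 9.08 on low 1 to low 5. High 4 was the highest, and high 1 and high 5 lay among the low arrays. The stress-responsive gene IER3 differed by 1.10 (SE 0.35), JUN, a component of the AP-1 factor, by 1.22 (SE 0.44), and the nuclear receptor NR4A2 by 0.73 (SE 0.23). EGR1, an early zinc finger factor, differed by 1.71 (SE 0.82), with low 1 at 10.37 near high 4 at 10.53 and the other low arrays at 7.19 or less. TSC22D3, the glucocorticoid-induced leucine zipper gene, was lower by 0.48 (difference -0.48, SE 0.18). Time from bleeding to RNA extraction was not given in the labels, and its part in these values was not tested.

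Differences of stress genes were small and varied with the arrays used. Heat shock and chaperone genes were higher in 15 of 18 cases (median difference 0.14), with HSPH1, a cochaperone of HSP70, at 0.59 (SE 0.21), the 1 of 18 under an unadjusted p of 0.05 (4.38% of all genes). Their median was 0.04 without high 3 and 0.08 without high 4. Endoplasmic reticulum stress genes were higher in 12 of 17 (median difference 0.15). That median was 0.003 without high 3, 0.07 without low 5, -0.08 with the erythroid covariate and -0.09 within the lower spike-in class. DDIT3, a transcription factor of that response, was at 9.32, 9.56, 10.05, 11.94 and 9.52 on high 1 to high 5, against 8.63, 9.09, 8.97, 9.11 and 9.32 on low 1 to low 5. High 4 stood far above all others, and the difference was 1.05 (SE 0.43). Genes of splicing and CLK kinases were higher in 19 of 25 cases with a median of 0.10, which was 0.05 without low 3, 0.16 without low 1 and 0.04 after a repeated quantile normalization, CLK3 being at 0.41 (SE 0.17) beside CLK1.

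Markers of other blood cells differed between the groups too, without passing adjustment. Erythroid genes were lower in 15 of 16 measured cases, with a median difference of -0.59. The list mean was 8.87, 8.93, 7.54, 7.79 and 8.56 on high 1 to high 5, against 9.56, 7.99, 8.71, 8.93 and 9.23 on low 1 to low 5, high 3 and high 4 being the lowest. Those under an unadjusted p of 0.05, 4 of 16 against 4.38% of all genes, were the haem synthesis enzymes UROD (-0.82, SE 0.24) and FECH (-1.12, SE 0.44), the membrane skeleton gene EPB41 (-0.85, SE 0.30) and, as the single higher member, the mitochondrial iron carrier SLC25A37 (0.47, SE 0.16). The list's median was 0.11 within the lower spike-in class and -1.16 within the higher one, and it was -0.34 without low 1, -0.35 without high 3 and -0.38 without high 4. ALAS2, the first enzyme of haem synthesis in red cells, ranged from 8.53 to 12.67 in the high group and from 10.54 to 13.67 in the low group, and the globin gene HBM from 8.72 to 12.48 in the high group and from 9.70 to 13.29 in the low group. Their differences of -0.99 (SE 0.83) and -1.04 (SE 0.81) were small beside that spread.

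Platelet genes were lower in 10 of 12 measured cases with a median difference of -0.50, which was -0.31 without low 4. At an unadjusted p under 0.05 were 2 lower members and 1 higher (2.05% and 2.32% of all genes). SELP, the adhesion receptor P-selectin, was at 8.10, 8.62, 7.84, 7.60 and 9.13 on high 1 to high 5, against 9.56, 8.77, 9.46, 9.90 and 8.64 on low 1 to low 5, a difference of -1.01 (SE 0.32). High 5 overlapped the low arrays, and high 1 to high 4 did not. PPBP, a platelet chemokine precursor, differed by -0.83 (SE 0.35) and PTGS1, which makes thromboxane precursors, by -0.89 (SE 0.45, its other probe set -0.27). CCL5 is on this list too and was 1 of its 2 higher members, with the highest difference of the 12.

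Myeloid and B cell markers divided differently. Monocyte genes were lower in 11 of 15 cases (median difference -0.19, with -0.34 without high 3, -0.09 without high 5 and -0.10 without low 4). NPC2 and AIF1, 2 of the 15 against 4.38% of all genes, had an unadjusted p under 0.05, with AIF1, a calcium-binding protein of macrophages, at -0.49 (SE 0.17). NPC2 was represented by its brightest probe set, and with the mean of its 3 probe sets its difference was -0.03. Neutrophil genes were higher in 11 of 13 (median difference 0.22), but the 1 member under an unadjusted p of 0.05, and without overlap, was PADI2, which was lower. The granule protein LTF differed by 1.14 (SE 0.54) with overlapping groups. The neutrophil median was 0.07 without high 3, 0.40 without high 2, 0.39 without high 5 and -0.16 within the lower spike-in class. The neutrophil list mean was 9.31 on high 3 and 8.81 on high 4, against 7.92 to 8.22 on the other high arrays and 8.13 to 8.27 on the low arrays, so high 3 and high 4 were the high arrays above the low range. Eosinophil, basophil and mast cell genes were higher in 1 of 4 cases (median difference -0.21, from -0.37 without low 5 to -0.06 without high 5), and B and plasma cell genes in 3 of 7 (median difference 0.00, mean difference 0.04, SE 0.16). Of these cell types, erythroid genes were also entered as a covariate, by their list mean. The differences were then 1.40 for CCL5, 1.20 for RRM2, 2.07 for IFNG and -1.29 for LEF1, and the list medians 0.31 for mitosis, 0.28 for DNA replication and -0.50 for naive T cells. Several other lists were nearer to 0 or changed sign, as given above for cytotoxic, immediate early, inflammatory, MHC class II and endoplasmic reticulum stress genes, with the neutrophil median at 0.07 and the T cell receptor median at 0.05. The platelet median was then -0.31 and the gamma delta median -0.38, also nearer to 0. Those of monocyte and interferon gamma response genes were further from 0, at -0.35 and 0.20. The parts of the other cell types were not tested.

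**Figure D4:**
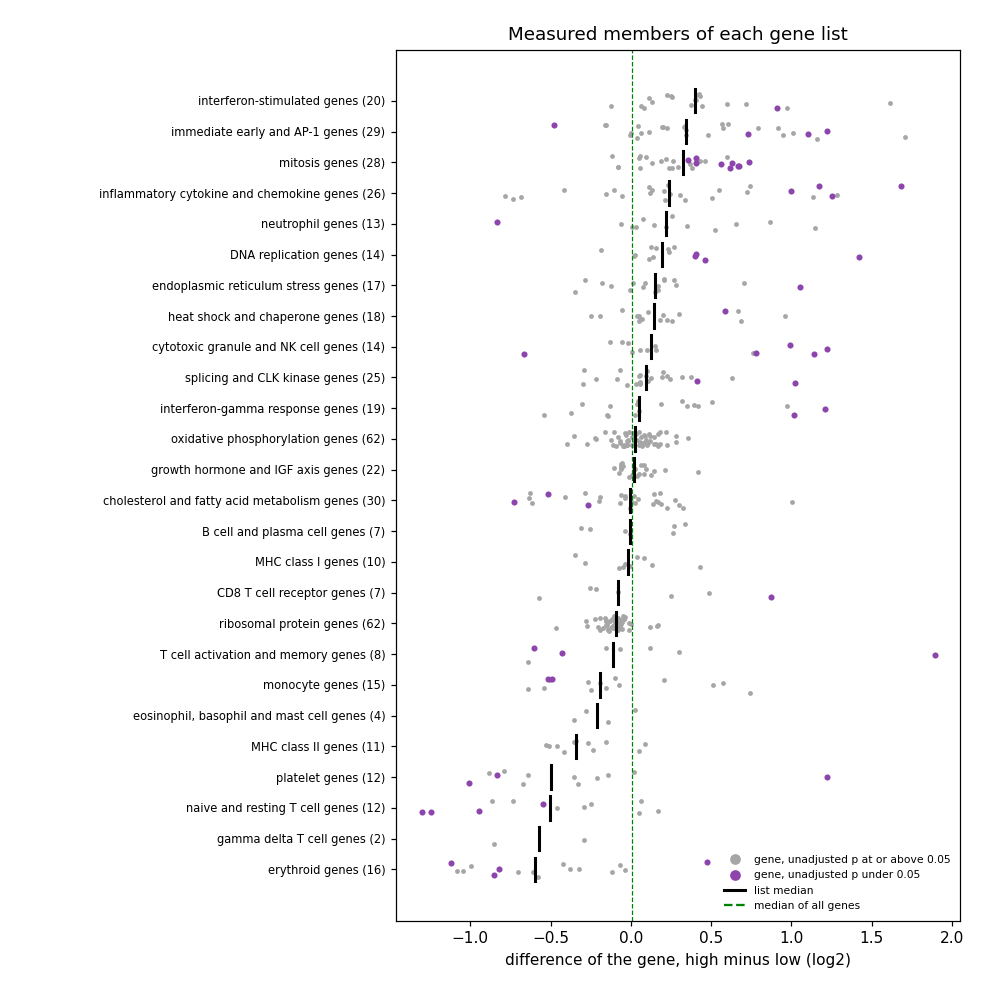
Difference of every measured member of 26 gene lists (x axis, log2, high minus low), with purple points for an unadjusted limma p under 0.05, black bars for list medians and a dashed green line for the median of all genes. Medians run from 0.40 for interferon-stimulated genes to -0.59 for erythroid genes, and points lie on both sides of 0 in most lists.

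**Figure D5:**
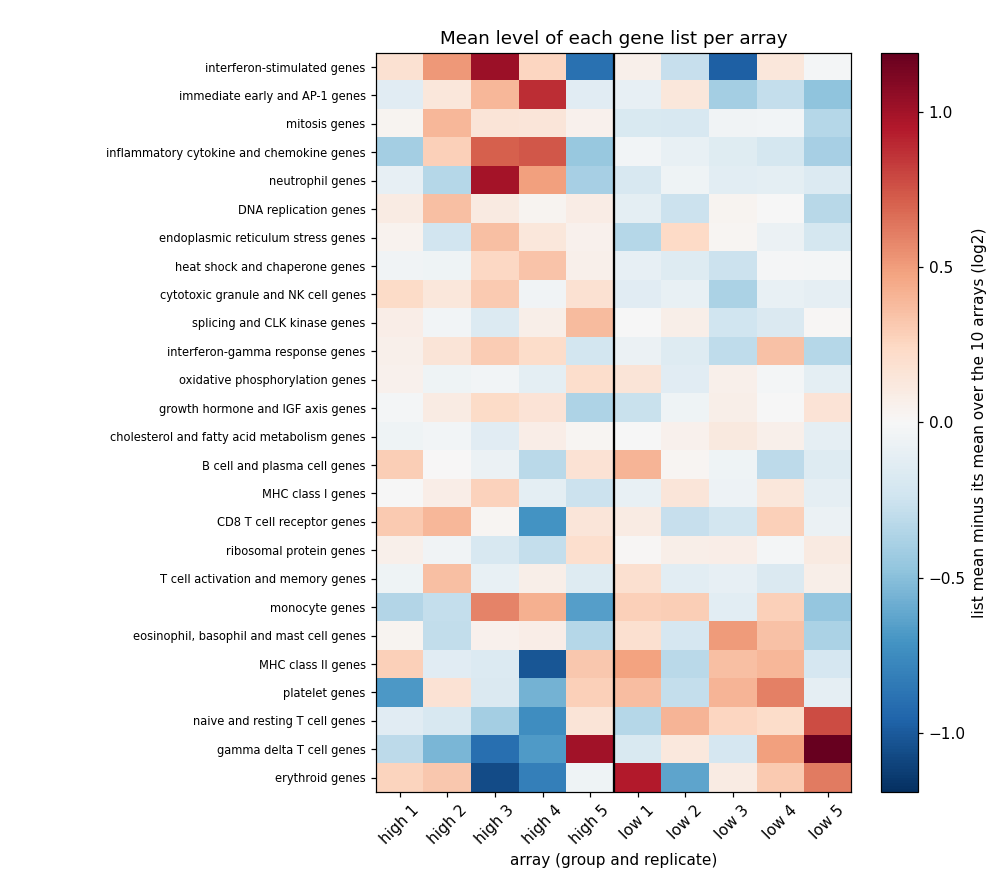
Mean log2 level of each gene list on each array as a difference from its mean over the 10 arrays, with high 1 to high 5 left of the black line and low 1 to low 5 right of it. Mitosis genes lie above their mean on all 5 high arrays and below it on all 5 low arrays, while neutrophil, interferon-stimulated and immediate early genes peak on high 3 or high 4.

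Genes tied to the second trait, growth, differed little in blood. Of 22 measured genes of the growth hormone and IGF axis, 13 were higher and 9 lower, the median difference was 0.02, and 0 had an unadjusted limma p under 0.05. Differences ran from -0.11 to 0.42, the highest being JAK2, the kinase of the growth hormone receptor and of many cytokine receptors (0.42, SE 0.22), and 8 of the 22 had a mean below the median probe set of 5.28. GHR, the growth hormone receptor, was at 3.99, 3.63, 4.14, 3.47 and 3.71 on high 1 to high 5, against 3.47, 3.69, 4.01, 3.70 and 3.83 on low 1 to low 5, a difference of 0.05 (SE 0.16). IGF1R, the receptor of insulin-like growth factor 1, was at 4.44 to 4.92 in the high group and 4.43 to 4.72 in the low group, a difference of 0.12 (SE 0.12). Liver and pituitary, where much of this axis is made, were not analysed here.

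Housekeeping and metabolic lists had medians close to 0. Of 62 ribosomal protein genes 58 were lower, yet by little: their median difference was -0.09, none had an unadjusted p under 0.05, and the list mean was 12.55 to 13.04 in the high group and 12.82 to 12.94 in the low group. Without high 4, 51 of 62 were lower with a median of -0.04, and without high 5 the median was -0.15. Oxidative phosphorylation genes were higher in 37 of 62 cases (median difference 0.03, 0 under an unadjusted p of 0.05). Genes of cholesterol and fatty acid metabolism were higher in 15 and lower in 15 of 30. The 3 members under an unadjusted p of 0.05 were all lower (2.05% of all genes). They were MAT2A and NPC2, described above as not overlapping (0.148% of all genes), of which MAT2A makes a methyl donor and no lipid, and the fatty acid carrier FABP4 (-0.27, SE 0.12). The desaturase SCD (-0.63, SE 0.29) and the sterol synthesis enzyme HMGCS1 (-0.61, SE 0.32), named after their values were seen, were lower with overlapping groups. Within the lower spike-in class SCD and HMGCS1 differed by -0.13 and -0.09, and within the higher one by -1.17 and -1.03.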

How the data were processed

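The authors deposited 1 table of log2 expression values for 80 arrays and 24123 probe sets; RMA and limma are named, with no version, in the submitters' processing notes. The deposited log2 values were used as they stand. The 10 arrays of CD8+--W35 were taken by title. After removal of 124 control probe sets, 23999 were fitted with limma 3.58.1 (R 4.3.3, lmFit and eBayes, 1 group term, two-sided, Benjamini-Hochberg over all 23999) as high minus low. The platform annotation gave 1 symbol to 10069 probe sets, several to 198 and none to 13732; 9961 of the 10069 Entrez IDs were found in RefSeq. The probe set with the highest mean stood for a gene. No genome build was given in the sources used here, so no positions are printed.

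Named genes were up to 10 per direction with the smallest p, non-overlapping groups and at least the median level, the 3 members of smallest p in each of 26 lists, and CD8A, CD8B, GHR and IGF1R. Other genes named (such as EZH2, PCNA, TNF, EGR1, OAS1, ALAS2, HBM, IL7R, SATB1, GNLY and GZMH) were chosen after their values were seen. The members and lists were chosen with earlier results of these data known. The fitting code was tested on simulated data. In all, 23 alternatives were run. Figures were drawn with matplotlib 3.10.9.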

Additional observations from a re-analysis of the deposited data

Results flagged for a closer look

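Within groups of 5 arrays, a single array far from the other 4 (Dixon's criterion) was found in 19 of 278 group-wise sets of values, of which 226 were genes and 52 list means. Chance sets apart about 1 in 20 such groups. All values here are log2 levels.

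High 4 stood above the other high arrays for the stress genes DDIT3 (11.9, the others 9.32 to 10.05) and DNAJB9 (9.56, the others 8.03 to 8.25) and for the kinase gene JAK2 (10.4, the others 9.17 to 9.52). High 5 stood above them for the histone methyltransferase EZH2 (8.37, the others 7.75 to 7.93), RCHY1 (9.7, the others 9.58 to 9.61) and RPS27L (10.5, the others 9.76 to 9.94). High 1 was low for the platelet gene PTGS1 (4.69, the others 6.31 to 6.88). High 2 was above the others in the mean of the DNA replication genes (8.2, the others 7.87 to 7.95).

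Low 1 was above the other low arrays for TNF (10.4, the others 7.62 to 8.25) and below them for PCLAF (9.19, the others 9.65 to 9.81) and the chaperone CALR (8.91, the others 9.76 to 10.06). Low 2 was above for DNAJB9 (8.59, the others 7.30 to 7.60). Low 3 was far below for the antiviral gene OAS1 (5, the others 10.09 to 10.89) and lowest in the mean of the cytotoxic genes (10.3, the others 10.49 to 10.54). Low 4 was below for CCL4 (9.24, the others 10.54 to 10.96) and above for the protease CTSB (12.4, the lowest of the others 11.85). Low 5 was below the others for CD8A (7.86, the others 8.76 to 9.07), RAD51AP1 (5.51, the others 6.02 to 6.23) and MAD2L1 (8.19, the others 8.60 to 8.66).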

How the results depend on the processing

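Under 22 of the 23 alternatives 0 probe sets reached an adjusted p of 0.05. With the erythroid list mean as a covariate 1 did, an unannotated probe set (difference 2.10, adjusted p 0.0428 in limma). The 19 non-overlapping genes described kept their direction under all 23 alternatives. They were picked for non-overlap, so leaving out arrays, taking 1 spike-in class or weighting arrays could not turn their sign. Under those alternatives the kept direction is therefore no support for a difference. The 425 higher, 397 lower and 98 non-overlapping probe sets became 229, 249 and 51 among the brighter 50% of probe sets, and 136, 135 and 41 with the mean of each gene's probe sets, where fewer features were tested. Array weights gave 820 higher and 815 lower, and the erythroid covariate 325 and 227. The lower spike-in class alone (2 high and 3 low arrays) gave 729, 581 and 4897, and the higher one (3 high and 2 low) 267, 681 and 3945, fewer arrays making non-overlap more common. Leaving out 1 array in turn gave 323 to 846 higher, 235 to 1100 lower and 162 to 580 non-overlapping. The upper ends came without high 5; lower calls were 235 without high 3 and 243 without high 4. The causes were not tested.

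Signs turned for some genes, none of which had passed adjustment. Within the lower spike-in class the differences were 0.035 for FECH, 0.88 for HBM, 0.95 for ALAS2, 0.60 for CCR3, -0.050 for TNFRSF17 and -0.031 for GHR. Within the higher class they were 0.11 for CCL2, 0.13 for IL7R and -0.41 for CD8B. The erythroid covariate gave 0.19 for HBM, 0.29 for ALAS2 and 0.12 for CCR3, the actin covariate, chosen after seeing the data, gave 0.14 for CCR3, and the mean of probe sets gave -0.12 for ATF4. Leaving out 1 array gave -0.60 to 0.041 for MS4A2, -0.039 to 0.13 for GHR and -0.49 to 0.16 for CCR3. List medians moved by more than the spread between arrays in 9 cases, among them the MHC class II median at 0.17 within the lower and -0.95 within the higher spike-in class.

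The replicate numbers showed no clear pairing of the pigs: correlations of deviations between same-numbered arrays were -0.18 to 0.24, 1 of 5 being over 0.1. In 2 of 5 cases an array matched best with its own number. These 5 correlations are too few to settle whether the numbers pair the pigs. With the replicate block, 444 probe sets were higher, 434 lower and 0 passed adjustment.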
